A study of Mus musculus with 6 samples.

Results

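Genes of ciliary transport and of the ciliopathies were read in adult mouse retina with and without the E3 ubiquitin ligase gene Trim9. A gene was a member when its symbol was Bbs, Ift or Nphp followed by a number, or was 1 of 15 further named symbols, and when at least 1 probe set (a group of short oligonucleotides that together read 1 transcript) named it alone. Of the 18193 genes read on the arrays, 37 were members, through 59 probe sets. They fell into 9 genes of the BBSome group, 19 of intraflagellar transport (IFT), 5 of the transition zone and 4 of the carriers of lipid-modified proteins. Arl6, the remaining named symbol, was not analysed here, and of the Nphp genes the rule found Nphp4 alone.

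Retinas of adult littermates, 3 WT and 3 Trim9 KO, were each read on 1 Affymetrix mouse genome array. In the KO animals exon 1 of Trim9 was removed by Cre after a cross with CMV-cre mice, which express Cre throughout the body, so the deletion was not limited to any retinal cell type. Although 1 label field describes embryos, the samples are labelled adult retina and were taken as such, and the strain and the age in weeks were not given in the sources used here. Values are intensities that the authors scaled on each array, taken here as log2(intensity + 16), and a gene was read by its brightest probe set.

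A photoreceptor builds its outer segment on a modified primary cilium, and all membrane proteins of the outer segment pass through the narrow connecting cilium, which corresponds to the transition zone of other cilia. IFT-B complexes with kinesin carry cargo towards the tip, IFT-A complexes with the dynein heavy chain encoded by Dync2h1 carry it back, and the BBSome is an adaptor that removes membrane proteins from cilia. Mutations in these genes cause Bardet-Biedl syndrome, nephronophthisis, Joubert syndrome and Leber congenital amaurosis, in which retinal degeneration is common.

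RFX transcription factors bind a palindromic element, the X-box, in promoters of many ciliary genes. Promoters of 34 of the 37 members were matched by gene number in RefSeq tables (GRCm38.p6, 250 bases before to 50 after an annotated start). The X-box was searched on both strands as GTNNCC, any 3 bases, and GNAAC (N is any base). It was found for 8 of 34 members (23.5%) and for 2.49% of all 27025 genes with a promoter in those tables. The matches are shown because they are a feature that the rule for members did not use. Each line is 5′ to 3′ on the strand of the gene, with the X-box in capitals and 8 bases on either side.
Bbs7: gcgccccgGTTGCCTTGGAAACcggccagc
Mks1: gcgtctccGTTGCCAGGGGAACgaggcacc
Ahi1: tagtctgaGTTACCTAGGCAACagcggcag
Bbs1: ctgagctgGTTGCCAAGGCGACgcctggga
Bbs4: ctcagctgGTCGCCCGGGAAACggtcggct
Ift57: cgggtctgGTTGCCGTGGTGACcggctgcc
Nphp4: cggtgcccGTCTCCTAGGTAACgcgccagc
Ift22: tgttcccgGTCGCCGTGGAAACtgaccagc
Ift22: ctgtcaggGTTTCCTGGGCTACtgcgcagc

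These windows lie at chr3:36613489-36613518 (Bbs7, minus strand), chr11:87853183-87853212 (Mks1, plus strand), chr10:20952560-20952589 (Ahi1, plus strand), chr19:4906605-4906634 (Bbs1, minus strand) and chr9:59353464-59353493 (Bbs4, minus strand). The others lie at chr16:49699199-49699228 (Ift57), chr4:152477903-152477932 (Nphp4), chr5:136908109-136908138 and chr5:136908079-136908108 (Ift22), all on the plus strand. The element in Bbs7, Mks1 and Ahi1 reads as a match on both strands. In Bbs7, Ift57 and Ift22 the element lies before the outermost annotated start of the gene, and in Ahi1, Bbs1 and Bbs4 within the first 50 bases after an annotated start. In Mks1 and Nphp4 it lies before 1 annotated start but inside the span of the gene, after another start. The median log2 fold change (Trim9 KO over WT) was -0.28 for the 8 members with the X-box and -0.63 for the 26 with a promoter but no match, a difference that was not tested.

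TAATCC, the core motif of the photoreceptor factors CRX and OTX2, was searched in the same way and found for 2 of 34 members, Bbs1 and Unc119, and for 8.14% of all genes. The windows are shown because Unc119 is the member with the widest spread in WT retinas (described with the cargo carriers), with the motif in capitals and 8 bases on either side; in Unc119 it is read on the other strand.
Bbs1: tctagtctTAATCCctaaaaag
Unc119: ctgtttctGGATTAccaggcct
They lie at chr19:4906811-4906832 (Bbs1, minus strand) and chr11:78345458-78345479 (Unc119, plus strand). The Bbs1 motif lies before the gene, and the Unc119 motif lies before 1 annotated start but inside the span of the gene.

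Trim9 itself, the deleted gene, read 12.05, 10.80 and 10.72 on WT replicates 1, 2 and 3 and 10.56, 9.002 and 8.58 on Trim9 KO replicates 1, 2 and 3 (log2 intensity), a log2 fold change of -1.81 (standard error 0.99, limma adjusted p = 0.999). Every KO array lay below every WT array, though Trim9 KO replicate 1 was only just below the lowest WT array, and where the probe set lies relative to exon 1 is not known here. This probe set was the brightest of 4 for Trim9, and with the 4 averaged the log2 fold change was -1.41. The least similar array was Trim9 KO replicate 1, whose mean Pearson's r with the others across probe sets was 0.50, against 0.63 to 0.74 for each of the others. Array medians were 218 to 807 in intensity. The 3′ to 5′ signal ratio of Actb, a measure that is high for degraded or incompletely copied RNA, was 20.2, 9.87 and 3.43 on WT replicates 1, 2 and 3 and 2.83, 94.5 and 90.5 on Trim9 KO replicates 1, 2 and 3. The same ratio for Gapdh was 310, 82.0 and 0.905 on the WT arrays and 134, 153 and 163 on the KO arrays, so that Trim9 KO replicate 1 had the lowest Actb ratio but not a low Gapdh ratio. Rod markers were present, with all 12 measured genes brighter than the median probe set (mean log2 intensity 14.27 to 16.27 over the arrays). Of 6 genes of motile cilia 2 were above that median, as were 4 of 6 genes of the retinal pigment epithelium, 0 of 4 lens genes and 0 of 2 blood genes.

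Most ciliary genes had lower means in the KO group, without any of them passing the test. Means were lower for 29 of the 37 members and higher for 8. The median log2 fold change was -0.59 over the members and 0.14 over all genes. A lower mean was found for 44.8% of all genes, and for 50% of the 12056 genes that are brighter than the median probe set, as 36 of the 37 members are. The median of those brighter genes was -0.00053. The members ranged from -2.46 (Bbs2) to 0.87 (Ift122). In bulk retina, fewer cells of a type and less RNA per cell cannot be told apart.

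The medians of the rod, cone, Müller glia and motile cilia marker lists went in the same direction as the ciliary genes. Those of the bipolar cell, pigment epithelium, lens and blood lists did not. Means were lower in KO retinas for 10 of 12 rod genes (median log2 fold change -0.56), 5 of 7 cone genes (-0.70), 4 of 4 genes of Müller glia (-0.88) and 1 of 3 bipolar cell genes (0.010). The same held for 3 of 6 genes of motile cilia (-0.11), 1 of 4 lens genes (0.92) and 0 of 2 blood genes (0.49). Of the genes listed, 12 of 14 rod, 3 of 5 bipolar cell and 2 of 3 blood genes were measured. The mean log2 intensity of the cone list was 12.71 to 13.32 on the WT arrays and 11.85 to 12.63 on the KO arrays. That of the Müller glia list was 12.73 to 14.48 and 12.08 to 12.47, so that neither list mean overlapped between genotypes. Taken singly, every gene of both lists did overlap. For Glul (17.08 and 16.41), Rlbp1 (13.58 and 13.30) and Aqp4 (14.43 and 13.24), Trim9 KO replicate 3 lay above WT replicate 2. The separation of the Müller glia list thus depended on Apoe (log2 fold change -3.02), which read 5.67 to 13.87 on the WT arrays. How often other lists separate in this way was not tested. The mean of the rod list overlapped, at 14.65 to 16.27 and 14.27 to 16.22. The pigment epithelium list had 0 of 6 genes lower (median 0.82), at 10.56 to 11.17 on the WT arrays and 10.77 to 12.80 on the KO arrays. The part of these cell types in the values of the ciliary genes was not tested.

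Genotypes were compared with limma across all 45037 probe sets. At an adjusted p of 0.05, 0 probe sets passed (0% called, and 2.88% at an unadjusted p under 0.05), and the lowest adjusted p among members was 0.999. 1 member, Bbs2, had an unadjusted p under 0.05 (0.737% of all genes had one with a lower mean and 1.82% with a higher mean). It no longer did when WT replicate 2, WT replicate 3, Trim9 KO replicate 1 or Trim9 KO replicate 2 was left out (limma p before adjustment 0.061 to 0.087). Every KO array was below every WT array for Bbs2, Ttc8 and Cluap1, which is 3 of 37 members (8.11%), against 2.89% of all genes and 3.42% of the brighter genes. The reverse separation was found for 0 members, against 5.35% and 4.5%. For these 3 genes the two-sided exact permutation test gave p = 0.1, the smallest that 3 arrays against 3 allow. Without Trim9 KO replicate 1, 25 members had a lower mean and the median was -0.36 (0.098 over all genes).

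**Figure D1:**
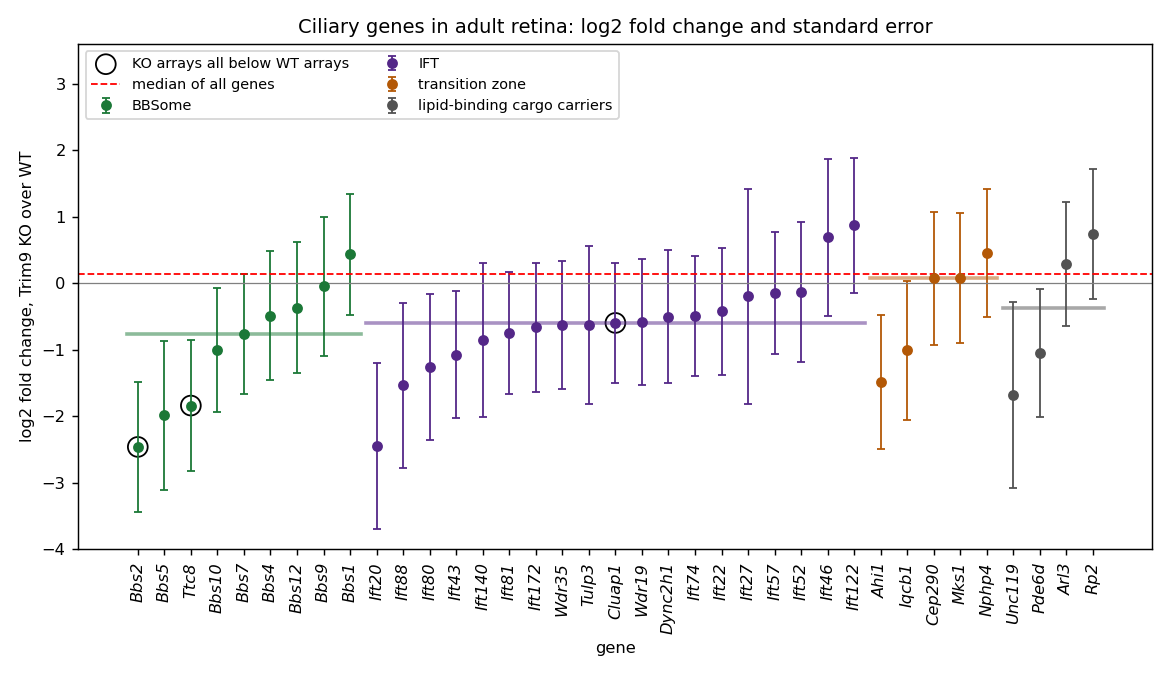
Log2 fold change, Trim9 KO over WT, with its standard error (y axis) for each of the 37 ciliary genes (x axis), coloured by group, with horizontal bars at the group medians and a dashed red line at the median of all genes (0.14). Of the 37 genes, 29 lie below 0, and the 3 circled genes (Bbs2, Ttc8 and Cluap1) are those with every KO array below every WT array.

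In the BBSome group the KO mean was lower for 8 of 9 genes, with a median log2 fold change of -0.76. With the probe sets of each gene averaged, it was lower for 7 of 9 and the median was -0.44. Bbs2, which encodes a core subunit of the complex, had the lowest log2 fold change of all members. It read 10.67, 12.37 and 11.90 on WT replicates 1, 2 and 3 and 8.52, 8.88 and 10.16 on Trim9 KO replicates 1, 2 and 3. The groups did not overlap, with a gap between Trim9 KO replicate 3 and WT replicate 1 that was smaller than the spread within either genotype. The means were 11.65 ± 0.87 and 9.19 ± 0.86 (SD, n = 3 each). The log2 fold change was -2.46 (standard error 0.98), or 5.50-fold lower. The limma p was 0.029 before adjustment and the adjusted p was 0.999. Bbs2 lies at chr8:94067952-94099369 (GRCm38.p6).

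Ttc8 encodes the BBSome subunit also known as Bbs8. It read 13.86, 13.60 and 13.26 on WT replicates 1, 2 and 3 and 12.62, 12.25 and 10.33 on Trim9 KO replicates 1, 2 and 3. The WT values were tight (SD 0.30), and the KO values were all lower but spread more widely (SD 1.23), since Trim9 KO replicate 3 was far below the other two. The log2 fold change was -1.84 (standard error 0.99, limma adjusted p = 0.999), and it was -1.14 without Trim9 KO replicate 3. Ttc8 lies at chr12:98920537-98983250, on the chromosome of Trim9 (chr12:70244533-70347869), as do Ift43 and Wdr35.

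Bbs5, a subunit that binds phosphoinositides, had a log2 fold change of -1.98 (standard error 1.13) without a separation of the genotypes. It read 10.12, 13.07 and 13.47 on WT replicates 1, 2 and 3 and 11.12, 10.12 and 9.47 on Trim9 KO replicates 1, 2 and 3. WT replicate 1 was at the level of Trim9 KO replicate 2, and leaving that WT array out took the log2 fold change to -3.03. Those arrays and Trim9 KO replicate 3 also had the lowest means of the rod genes.

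The other BBSome subunits differed by less than their standard errors. Bbs7 was at 12.86 to 13.66 in WT and 12.23 to 12.94 in KO retinas, so that the ranges overlapped at their ends (log2 fold change -0.76, standard error 0.91). Bbs4 (-0.48), Bbs9 (-0.047) and Bbs1 (0.44) lay closer to 0, and Bbs1, at 12.84 to 13.77 in WT and 13.48 to 13.90 in KO, was the 1 member of the group with a higher mean. Bbs10 and Bbs12 encode chaperonin-like proteins that assemble the complex. Bbs10 had a log2 fold change of -1.01 (standard error 0.94), with ranges of 9.84 to 10.63 in WT and 8.52 to 9.88 in KO, and was at -0.59 without Trim9 KO replicate 3. Bbs12 was at -0.37 (standard error 0.98).

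**Figure D2:**
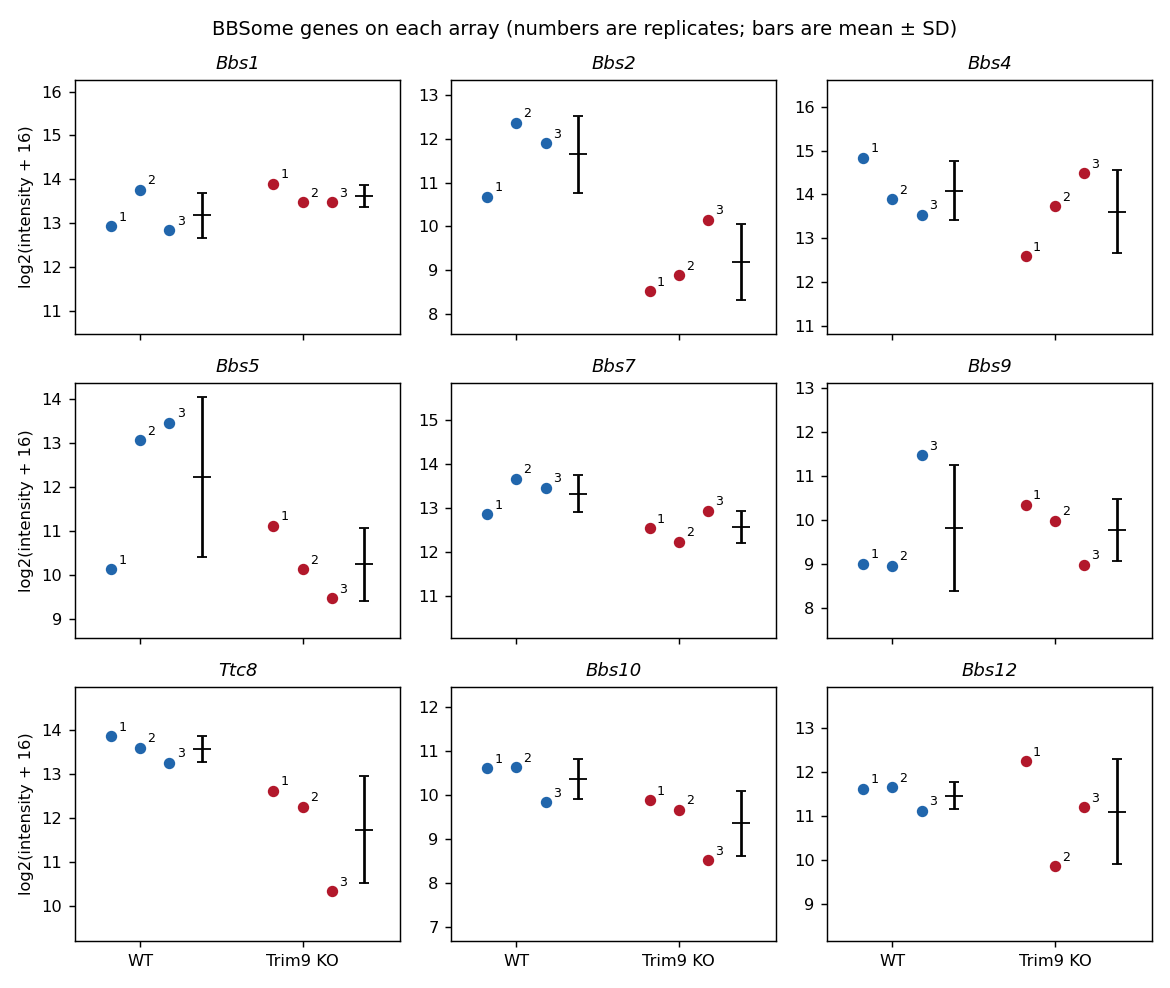
Log2(intensity + 16) (y axis, the same span in every panel) of the 9 BBSome genes with each array drawn as a point and numbered by replicate (3 WT in blue, 3 Trim9 KO in red) and the mean ± SD to the right. Bbs2 and Ttc8 are the genes whose red points all lie below the blue ones.

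Among the 19 IFT genes the KO mean was lower for 17 and higher for 2 (median -0.59, and -0.27 without Trim9 KO replicate 1), with medians of -0.54 for the 12 genes of IFT-B and -0.63 for the 6 of the IFT-A list, which includes the adaptor Tulp3. Cluap1, the IFT-B subunit also known as Ift38, was the 1 gene of the group in which the genotypes did not overlap. It read 11.51, 11.64 and 11.39 on WT replicates 1, 2 and 3 and 10.45, 11.21 and 11.10 on Trim9 KO replicates 1, 2 and 3. The difference was small, at -0.59 on the log2 scale (standard error 0.90, limma adjusted p = 0.999), and -0.36 without Trim9 KO replicate 1. Quantile normalization, and likewise equal array medians, made the groups overlap.

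Ift20, an IFT-B subunit that also works at the Golgi in sorting membrane proteins to the cilium, had the lowest log2 fold change of the IFT genes, -2.45 (standard error 1.25, limma adjusted p = 0.999). It read 11.97, 11.41 and 12.05 on WT replicates 1, 2 and 3 and 6.68, 9.71 and 11.70 on Trim9 KO replicates 1, 2 and 3. Trim9 KO replicate 3 lay within the WT range, and the log2 fold change was -1.11 without Trim9 KO replicate 1. Ift88, the gene disrupted in the Tg737 polycystic kidney mouse, read 10.45, 10.72 and 10.73 in WT and 6.23, 10.20 and 10.88 in KO retinas. Its log2 fold change of -1.53 (standard error 1.24) became -0.095 without Trim9 KO replicate 1. Ift80 read 12.28, 12.90 and 12.18 in WT and 9.10, 12.18 and 12.31 in KO retinas, and its log2 fold change of -1.26 (standard error 1.09) became -0.21 without that array.

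This pattern of 1 low array was seen in several members. Trim9 KO replicate 1 was the lowest of the 6 arrays for 15 of 37 members (40.5%), among them 8 of the 12 IFT-B genes, against 30.1% of the brighter genes and 22.3% of all genes. For 6 members, Ift20, Ift27, Ift80, Ift88, Ift140 and Iqcb1, it lay at least 2 below the next lowest array on the log2 scale (2.23 to 3.96), which held for 9.12% of the brighter genes. Ift27 and Ift140 were picked out here after their values were seen. The small GTPase gene Ift27 read 13.10, 10.94 and 11.58 in WT and 7.34, 13.98 and 13.73 in KO retinas, so that Trim9 KO replicate 1 was the lowest array and the other KO arrays were the highest. Its log2 fold change turned from -0.19 (standard error 1.62) to 1.98 without that array. The IFT-A core gene Ift140 read 11.14, 11.76 and 11.33 in WT and 8.16, 12.19 and 11.33 in KO retinas, and turned from -0.85 (standard error 1.16) to 0.35.

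The remaining IFT-B genes ranged from -0.75 for Ift81, which with Ift74 binds tubulin, to 0.69 for Ift46. Ift74 was at -0.49, Ift172 at -0.66, Ift22 at -0.42, Ift57 at -0.14 and Ift52 at -0.13. Ift74 and Ift81 had narrow ranges, with Ift74 at 11.81 to 12.61 in WT and 11.56 to 11.98 in KO retinas, and Ift81 at 12.63 to 13.09 and 11.51 to 12.66. In IFT-A, the complex for return from the tip, Ift43 was at -1.07 (standard error 0.95), with 12.71 to 13.32 in WT and 11.26 to 12.96 in KO retinas. Wdr35 was at -0.63, Wdr19 at -0.59, Tulp3 at -0.63 and Ift122 at 0.87. Dync2h1, the motor for that return, was at -0.50 (standard error 1.00). Tulp3 was the 1 member whose probe set was dimmer than the median of all probe sets, and its WT values ran from 6.13 to 10.20.

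**Figure D3:**
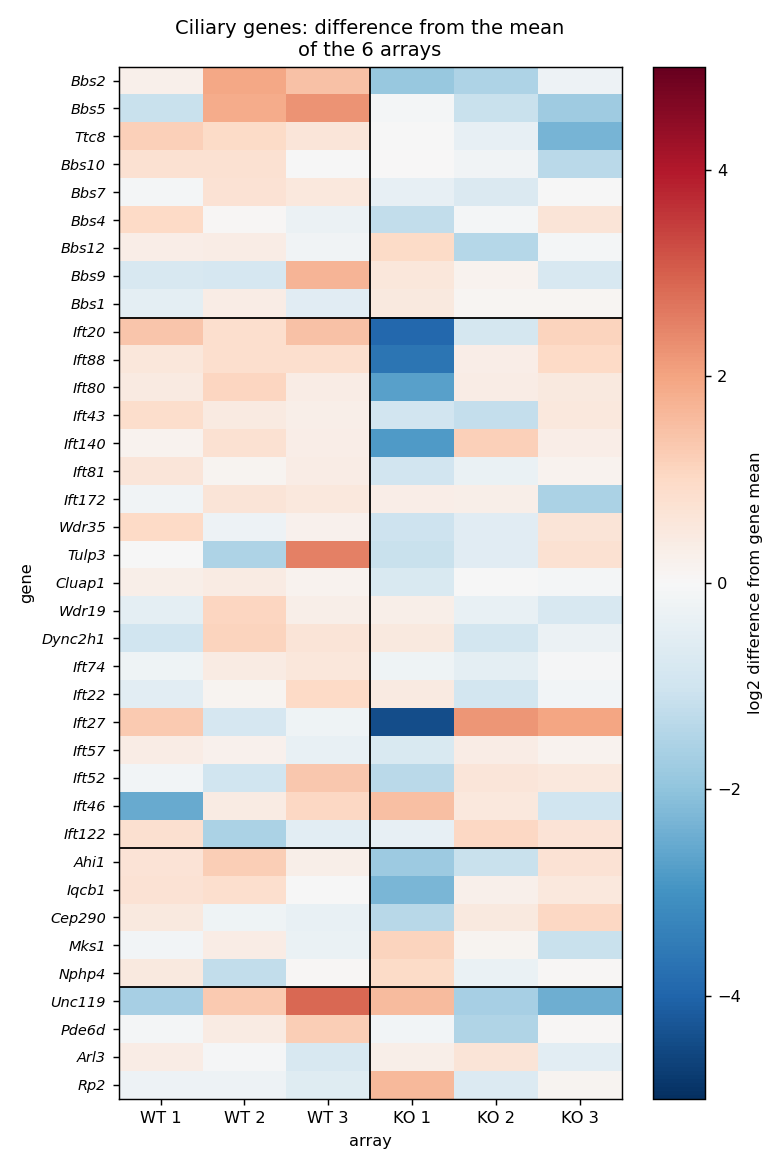
Difference of each array (x axis, 3 WT then 3 Trim9 KO) from the mean of the 6 arrays on the log2 scale (colour, blue lower and red higher) for each ciliary gene (y axis), with black lines between the BBSome, IFT, transition zone and cargo carrier groups. KO replicate 1 holds the darkest blue cells among the IFT genes (Ift20, Ift27 and Ift88), and Unc119 varies most among WT arrays.

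In the transition zone group 2 genes were lower and 3 higher, a balance that changed with the normalization and with the arrays kept. Its median was 0.077, against 0.14 for all genes and -0.00053 for the brighter genes. Ahi1, the Joubert syndrome gene for jouberin, read 13.41, 13.98 and 13.04 on WT replicates 1, 2 and 3 and 10.92, 11.61 and 13.47 on Trim9 KO replicates 1, 2 and 3. Trim9 KO replicate 3 lay within the WT range while the other KO arrays lay below it, and the log2 fold change was -1.48 (standard error 1.01), or -0.94 without Trim9 KO replicate 1. Iqcb1, which encodes a partner of Cep290 at the connecting cilium, read 11.24, 11.36 and 10.50 in WT and 8.26, 10.77 and 11.04 in KO retinas. Its log2 fold change of -1.01 (standard error 1.05) was -0.13 without Trim9 KO replicate 1. Nphp4 had linear intensities of 1375, 400.1 and 1006 in WT and 1912, 761 and 1008 in KO retinas, with overlapping values and a log2 fold change of 0.46 (standard error 0.97).

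Cep290, a large scaffold between the microtubules and the membrane of the connecting cilium, was at 12.62 ± 0.45 in WT and 12.70 ± 1.27 in KO retinas (SD, n = 3 each; log2 fold change 0.077, standard error 1.00). Mks1 was at 10.14 ± 0.37 and 10.23 ± 1.11 (log2 fold change 0.083, standard error 0.97). The group median turned negative whenever an array other than WT replicate 1 was left out (-0.41 to -0.048), and also after quantile normalization (-0.031) and with equal array medians (-0.24). Differences between the medians of the BBSome, IFT and transition zone groups were not tested.

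The carriers of lipid-modified proteins bring transducin, phosphodiesterase and other acylated or prenylated proteins to the outer segment. Unc119, which binds the acyl chain of transducin, had the widest WT range of all members. It read 11.89, 14.87 and 16.42 on WT replicates 1, 2 and 3 and 15.15, 11.90 and 11.12 on Trim9 KO replicates 1, 2 and 3. The high and low arrays were split within each genotype, and the log2 fold change of -1.67 had a standard error of 1.40. It was -2.92 without WT replicate 1, -2.89 without Trim9 KO replicate 1 and -0.66 without WT replicate 3. The low arrays, WT replicate 1 and Trim9 KO replicates 2 and 3, were those with the lowest means of 12 rod genes (14.65, 14.98 and 14.27, against 15.90 to 16.27 on the others). They also had the highest 3′ to 5′ ratios of Actb (20.2, 94.5 and 90.5) and of Gapdh (310, 153 and 163). The part of rod content and of RNA quality in these values was not tested.

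Pde6d, the carrier of prenylated proteins, read 11.81, 12.33 and 13.15 in WT and 11.76, 10.41 and 11.97 in KO retinas, and the log2 fold change was -1.05 (standard error 0.96). It was -0.57 without Trim9 KO replicate 2 and -0.69 without WT replicate 3. Trim9 KO replicate 2 was the lowest array, Trim9 KO replicate 1 lay just below the WT range and Trim9 KO replicate 3 within it. Rp2, whose protein activates GTP hydrolysis by Arl3, read 10.84, 10.84 and 10.51 in WT and 12.73, 10.43 and 11.25 in KO retinas. Its higher mean (log2 fold change 0.74, standard error 0.98) was 0.11 without Trim9 KO replicate 1. Arl3, the small GTPase that unloads these carriers in the cilium, was at 16.29 ± 0.59 in WT and 16.59 ± 0.60 in KO retinas (SD, n = 3 each). Its log2 fold change of 0.30 (standard error 0.93) was -0.25 after quantile normalization and -0.026 with equal array medians.

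Some members followed the split of arrays seen for Unc119 and others ran against it. Bbs5 was lowest on the same arrays (9.47 to 10.12, against 11.12 to 13.47 on the others). Cep290 was highest on them, at 13.13, 13.16 and 13.68, against 11.26 to 12.43 on the others. Ift27 was also highest on them (13.10 to 13.98, against 7.34 to 11.58), and so was Ift122 (13.22 to 13.57, against 10.95 to 12.15). Each set held arrays of both genotypes. These genes were picked after their values were seen, and no test was made of the relation.

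**Figure D4:**
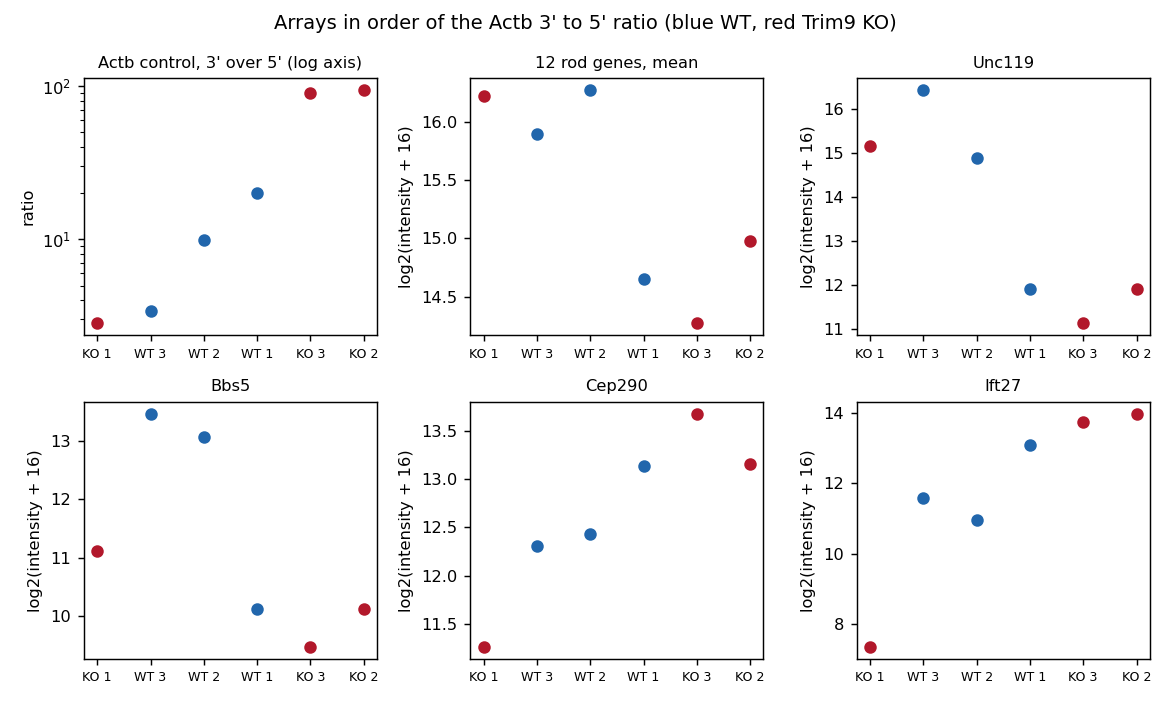
The Actb 3′ to 5′ signal ratio (log axis), the mean log2(intensity + 16) of 12 rod genes, and the log2(intensity + 16) of Unc119, Bbs5, Cep290 and Ift27 (y axes) on the 6 arrays (x axes, in order of the Actb ratio), with blue for WT and red for KO. Unc119 and Bbs5 are lower, and Cep290 and Ift27 higher, on the 3 arrays with the highest ratios, which are 1 WT and 2 KO arrays.

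The median SD of the members over the 3 WT arrays was 0.47 on the log2 scale, against 0.89 for the brighter genes. Over the 3 KO arrays it was 0.93, against 0.97 for the brighter genes. The KO SD was the larger for 22 of 37 members (59.5%), against 53.1% of the brighter genes.

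Other genes of the pathway were read from a list of 42, of which 40 were measured. Of these, KO means were lower for 25 and higher for 15 (median -0.27), 0 passed limma's adjusted threshold, and 0 had an unadjusted p under 0.05. A lower mean was thus found for 62.5%, against 44.8% of all genes and 50% of the genes brighter than the median probe set, as most of the 40 are. Without overlap between the genotypes, 1 gene was lower (2.5%) and 2 were higher (5%) in KO retinas, shares near those of all genes (2.89% and 5.35%). The gene below was Ttc26, the IFT-B subunit also known as Ift56, which read 10.50, 10.90 and 9.83 in WT and 9.03, 8.97 and 9.64 in KO retinas (log2 fold change -1.20, standard error 0.92). The genes above were Invs and Inpp5e. Invs, for inversin, read 9.76, 7.54 and 8.96 in WT and 11.77, 10.37 and 10.48 in KO retinas (log2 fold change 2.12, standard error 1.00). Inpp5e, a ciliary phosphoinositide phosphatase and a cargo of Pde6d, read 11.02, 10.81 and 9.73 in WT and 11.93, 11.67 and 11.21 in KO retinas (1.08, standard error 0.93). The genes with the largest limma statistics after Invs were Tmem216 of the transition zone (-2.43, standard error 1.23) and the IFT-B gene Ttc30b (-2.48, standard error 1.40). Ttc30b read 6.65 on Trim9 KO replicate 1 and 11.75 to 13.67 on the other arrays.

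Probe sets of the same gene did not always point the same way. Of the 37 members, 14 had more than 1 probe set, and for 9 of these the log2 fold changes differed in sign (Bbs4, Bbs7, Bbs10, Ift27, Ift57, Ift80, Rp2, Tulp3 and Wdr19). Among probe sets brighter than the median of all probe sets, this held for 5 of the 6 members with several. The brightest Ift80 probe set was at -1.26 and the other at 1.09. Bbs4 had 4 probe sets, at -0.48, 0.71, -1.19 and -1.87 in order of brightness. Bbs2, Ttc8 and Cluap1 each had 1 probe set.

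**Figure D5:**
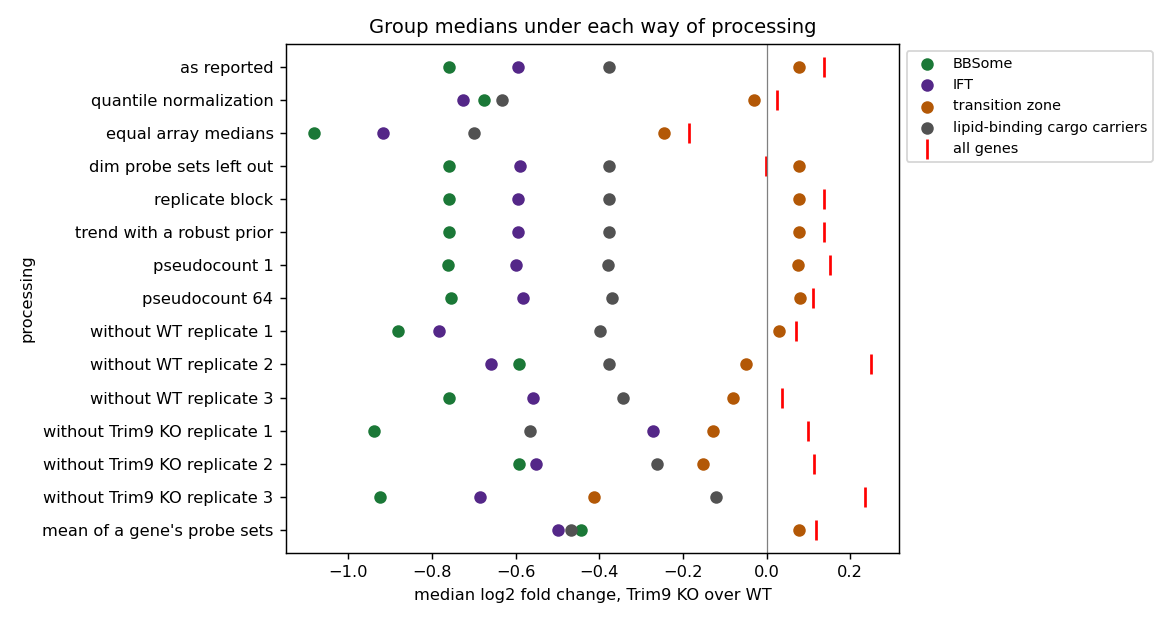
Median log2 fold change, Trim9 KO over WT (x axis), of the 4 ciliary gene groups (coloured points) and of all genes (red ticks) under each way of processing (y axis). The BBSome, IFT and cargo carrier medians stay below 0 and below the median of all genes in every row. The rows for the replicate block and for limma's trend with a robust prior cannot differ from the first, as those settings leave fold changes unchanged. The transition zone median lies on both sides of 0 (-0.41 to 0.079). It is below the median of all genes except with dim probe sets left out.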

How the data were processed

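RNA of 3 WT and 3 Trim9 KO samples of adult retina was measured on Affymetrix mouse genome arrays, and groups were taken from the sample labels. The deposited intensities are linear and were scaled by the authors to the same trimmed mean of 1500 on every array (lowest and highest 2% left out). Per the labels the tool was MAS5, without a version, whereas the methods state RMA. Detection calls were not used here. Each value was taken as log2(intensity + 16), and 64 control probe sets were left out. The other 45037 probe sets were compared with limma 3.58.1 (lmFit, eBayes; R 4.3.3) without a filter or a block, and p-values were adjusted by Benjamini-Hochberg over all of them. Of these probe sets 34945 named 1 gene, 932 several and 9160 none, and the brightest of those naming 1 gene stood for it. The rule for members and the lists of other pathway genes and markers were chosen with earlier results of these data known. Values on every array are given for Trim9, for members with no overlap or an unadjusted p under 0.05, for the 3 members with the largest limma statistic in each group, and for genes said to be picked later. Alternatives were quantile normalization, equal array medians, leaving out dim probe sets, a replicate block, a robust prior with limma's trend, averaging each gene's probe sets, pseudocounts of 1 and 64, and leaving out each array. The fit was tested on simulated data. The number of arrays limits the precision. Figures were drawn with Python 3.11.15 and matplotlib 3.10.9.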

Additional observations from a re-analysis of the deposited data

How the results depend on the processing

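The count of probe sets past an adjusted p of 0.05 was 0 in all settings run. The log2 fold changes of Bbs2 (-2.95 to -2.10 when an array was left out) and Ttc8 (-2.28 to -1.14) stayed negative in every setting. For genes with 1 probe set and no overlap on the 6 arrays, only quantile normalization and equal array medians could bring overlap. The other settings could bring neither overlap nor a change of sign, so they are no check of the separation or of the sign. After each of those normalizations the KO arrays of Bbs2 and Ttc8 still lay below their WT arrays, whereas Cluap1 overlapped. Members without overlap numbered 5 after quantile normalization and 5 with equal array medians, all lower in KO retinas. Of all genes, 3.47% were lower and 5.4% higher after quantile normalization, and 3.61% and 3.66% with equal array medians. With probe sets averaged per gene, 4 members were lower and 1, Ift57, was higher (2.67% and 4.91% of all genes). In fits without 1 array, where fewer arrays separate more readily, such members numbered 4 to 12. There 3 to 12 were lower and 0 to 2 higher, against 4.51% to 10.8% and 7.77% to 14.7% of all genes. Members with an unadjusted p under 0.05 numbered 2 with equal array medians (Bbs2 and Bbs5) and 4 with limma's trend and a robust prior (Bbs2, Bbs5, Ift20 and Ttc8). Of all 45037 probe sets, 1354 and 1096 had such a p in these settings, against 1296 in the main fit. With probe sets averaged per gene, 3 members had one (Bbs2, Ift57 and Ttc8), as did 618 of 18193 genes. When an array was left out, 0 to 2 members had one, as did 854 to 2556 of the 45037 probe sets. The count was 0 without WT replicate 2, WT replicate 3 or Trim9 KO replicate 2. Without Trim9 KO replicate 1 it was Ttc8 in place of Bbs2. With equal array medians the median of all members was -0.92 and that of the BBSome group -1.08, while the median of all genes moved to -0.19, and with probe sets averaged per gene the BBSome median was -0.44. When an array was left out, the medians were -0.78 to -0.36 for all members, -0.94 to -0.59 for the BBSome group, -0.78 to -0.27 for IFT, -0.41 to 0.030 for the transition zone and -0.56 to -0.12 for the cargo carriers. Trim9 was at -2.40 to -1.38 in those fits.

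Of the 37 members, 22 kept the sign of their log2 fold change in every setting. After quantile normalization Arl3 turned to -0.25 and Cep290 to -0.031. With equal array medians Arl3 turned to -0.026, Cep290 to -0.24 and Mks1 to -0.24. With probe sets averaged per gene Bbs7 turned to 0.020, Ift57 to 1.71 and Wdr19 to 0.47. When an array was left out, values that changed sign spanned -0.024 to 0.63 for Arl3, -0.94 to 0.26 for Bbs12, -0.92 to 0.019 for Bbs4, -0.47 to 0.79 for Bbs9, -0.41 to 0.80 for Cep290, -1.66 to 0.35 for Ift140, -1.34 to 1.98 for Ift27, -0.39 to 1.39 for Ift46, -0.67 to 0.50 for Ift52, -0.37 to 0.21 for Ift57, -0.45 to 0.66 for Mks1, -0.048 to 0.82 for Nphp4 and -1.56 to 0.48 for Tulp3. The cause of these turns was not tested. With the replicate number as a block 1 member had an unadjusted p under 0.05, as did 864 of all 45037 probe sets, and no call changed. The median of all members was -0.59 as before, since a block with 1 array per genotype cannot change log2 fold changes. Same-numbered WT and KO arrays did not deviate together from their genotype means (r = -0.23, -0.081 and 0.033 across probe sets). With means of 3 arrays that differ in quality, this cannot show whether the numbers pair littermates.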

Other observations

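The dimmer of the 2 Ift57 probe sets, chosen here after its values were seen, read 5.59, 6.20 and 6.38 on WT replicates 1, 2 and 3 and 10.84, 9.17 and 8.87 on Trim9 KO replicates 1, 2 and 3 (log2 intensity). Every KO array lay above every WT array, and the log2 fold change was 3.56 (standard error 0.97, limma unadjusted p = 0.0035, adjusted p = 0.999). The brighter Ift57 probe set was at -0.14, and the WT values of the dimmer one were under the all-probe-set median of 8.31. Among the 5 probe sets of Rp2, log2 fold changes were 0.74, -0.47, 1.27, -1.20 and 0.24 in order of brightness. Of the 3 Ift27 probe sets, the brightest was at -0.19 and the others at 0.87 and -2.31.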
